A study of Mus musculus with 12 samples.

Results

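Hepatocytes freshly isolated from the liver were compared with whole liver tissue in mice labelled IkkβDhep (Dhep), in which the kinase Ikkβ is deleted. The comparison rests on 6 of the 12 Illumina mouse bead arrays of the study, chosen by their labels: 3 arrays of isolated hepatocytes and 3 of fresh liver, all Cre-positive. The other 6 arrays hold the same 2 preparations from Cre-negative IkkβF/F (FF) mice and serve here only to show where the Dhep difference departs from that of FF. All groups are male adult C57BL6/J mice, untreated as far as the labels say, with an age of 4 to 6 weeks in the sample labels and 6 to 8 weeks in the study's description. That description gives 4 mice and 4 RNA samples, so each group's 3 arrays are treated as repeats of a single RNA. Every p-value below therefore compares those RNA samples, not the preparations in general. With 4 mice for 4 RNA samples, a difference between preparations cannot be told apart from a difference between mice. The term isolation difference below is short for hepatocytes minus liver and carries that limit. Which promoter drives Cre was not given in the labels.

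The liver is a mixture of parenchymal hepatocytes and of sinusoidal endothelial cells, stellate cells, Kupffer cells (the resident macrophages), bile duct cells and blood. Isolation of hepatocytes breaks this tissue up and enriches its largest cells, and the handling itself is known to shift the expression of some genes. Ikkβ, encoded by Ikbkb, is a subunit of the IKK complex that activates the transcription factor NF-κB in response to inflammatory signals.

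Signals are given as background-corrected and quantile-normalized log2 intensity, and a difference is hepatocytes minus liver on that scale. The correction adds an offset of 50, which compresses the differences of dim probes. A probe was called at an adjusted p under 0.05 and a difference of at least 1, that is 2-fold. In Dhep, 113 of the 22859 probes kept were called higher in hepatocytes (0.494%) and 108 lower (0.472%). None of these 221 probes overlapped between the 3 arrays of each preparation. The fold threshold all but assures this, since the median SD between arrays of a group was 0.059 to 0.067. Of all genes, 27.4% were higher and 26.6% lower without overlap. Scaling the arrays to a common median instead gave 168 higher and 72 lower, which moves the share of higher calls from 51.1% to 70.0%. Most differences were small: 13 probes were higher and 3 lower by at least 4-fold, and the median over 12010 genes was 0.01. Pearson's r across probes was 0.998 between arrays of a group and 0.986 between Dhep hepatocytes and Dhep liver, and the raw 75th percentiles of the 6 arrays ran from 94.7 to 119.

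When the RNA sample was taken as the replicate and both genotypes entered together, limma called 0 probes in either direction (0%). In that model 975 probes were higher and 716 lower at an unadjusted p under 0.05. Over the 12 arrays with RNA sample as random block, 75 were called higher and 16 lower, of which 42 and 12 were also called in Dhep.

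The targeted gene was not called. The sole Ikbkb probe above the floor gave 7.38, 7.58 and 7.46 on the Dhep liver arrays and 7.67, 7.62 and 7.67 on the Dhep hepatocyte arrays, a difference of 0.19 with no overlap between the arrays, below the fold threshold. Its group means were 7.62 in FF liver and 7.35 in FF hepatocytes, so the probe was not lower in the Cre-positive hepatocytes. Its position relative to the deleted part was not known, so it does not check the labels. The other Ikbkb probes were below the floor. Ikbkg, which encodes the complex's scaffold NEMO, stood at 8.96 in Dhep liver and 9.23 in Dhep hepatocytes and was not called either. Of 17 measured genes of the IKK complex and its regulators, 0 were called (median 0.19). Over all 12010 genes, each by its brightest probe, 0.641% were called higher and 0.624% lower. A count of 0 in a list of this size thus says nothing particular to it. The counts of the lists below stand beside the same shares.

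The label of the preparation was checked against hepatocyte markers. Of 20 measured hepatocyte identity genes, 1 was called higher and 0 lower (median 0.01), while 0.641% of all 12010 genes, each by its brightest probe, were called higher and 0.624% lower. Their mean log2 signal was 12.51 to 12.52 on the liver arrays and 12.61 to 12.67 on the hepatocyte arrays, so the arrays did not overlap although the shift was small. G6pc (1.18) and Apob (0.91) differed most, and the lowest gene was at -0.44. Of the 20 genes, 5 were higher and 2 lower without overlap, while 27.4% of all genes were higher and 26.6% lower in that way. The list thus gave little check of the label. Alb, which encodes albumin, was read by a single dim probe at 7.67, 7.47 and 7.87 in liver and 7.82, 8.17 and 8.33 in hepatocytes, a difference of 0.44 that was not called. The probe of Fabp1, a fatty acid binding protein of hepatocytes, was below the floor in both preparations.

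**Figure D1:**
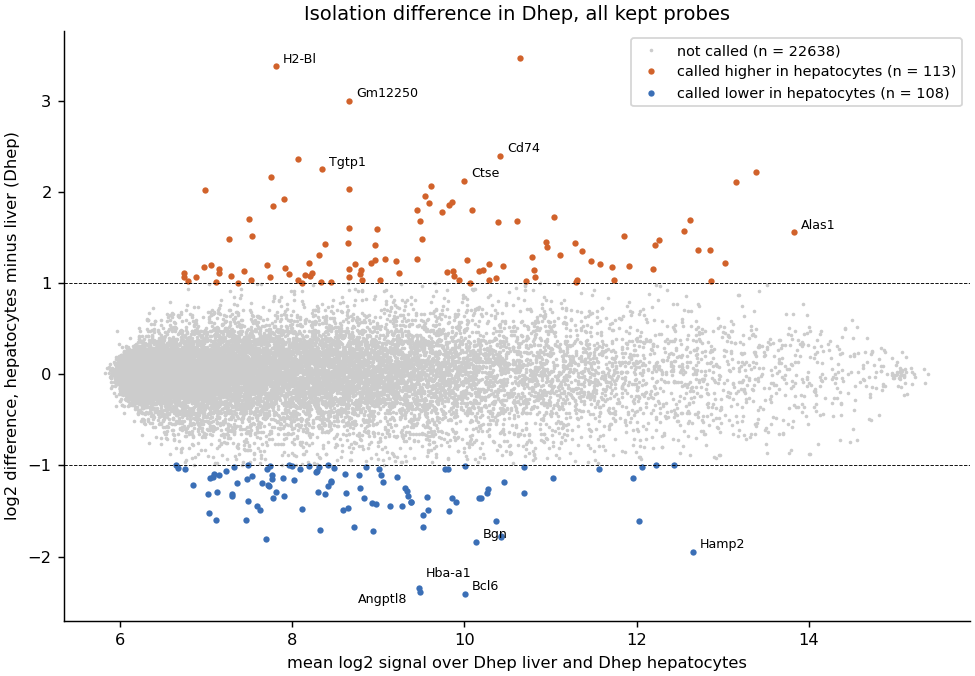
Difference between Dhep hepatocytes and Dhep liver (y axis, log2) against the mean log2 signal of both (x axis) for all 22859 kept probes, each point a probe, with the 113 called higher and 108 called lower in colour and dashed lines at a log2 difference of 1 and -1. Most probes lie close to 0 at every signal level, and the called ones span dim and bright probes.

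The group of genes with the highest median difference was that of antigen presentation by MHC class II. Class II molecules display peptides from ingested protein to helper T cells. They are made mainly by macrophages, dendritic cells and B cells, and in other cells under interferon-gamma. Of 10 measured class II genes, 7 were called higher in Dhep hepatocytes and 0 lower, against 0.641% and 0.624% of all genes. Their median difference was 1.42. Cd74, the chaperone known as the invariant chain, gave 12.33, 12.31 and 12.20 on the liver arrays and 14.52, 14.50 and 14.47 on the hepatocyte arrays with its brightest probe. All 3 hepatocyte arrays were far above all 3 liver arrays, a 4.67-fold difference (2.22, SE 0.05, adjusted p = 2.03e-19), and its other probes differed by 2.11 and 2.40. H2-DMa, a chain of the peptide exchange factor, read 9.21, 9.24 and 9.11 in liver and 11.11, 10.78 and 11.07 in hepatocytes (1.80). H2-DMb1 differed by 1.80 and H2-DMb2 by 1.59, although another H2-DMb2 probe differed by only 0.19. Ciita, the master activator of class II transcription, read 6.49, 6.47 and 6.64 in liver and 7.94, 8.03 and 8.06 in hepatocytes (1.48). The classical chains H2-Ab1 (1.36) and H2-Eb1 (1.21) were called, whereas H2-Aa (0.98) was just under the threshold, and H2-Ob (-0.05) and H2-Oa (0.05) were near 0. This list was written with earlier results of these data known, so its direction is not independent evidence.

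Class II transcripts as a list were lower in both FF preparations than in Dhep. Their mean log2 signal was 7.41 to 7.48 in FF liver and 7.38 to 7.42 in FF hepatocytes. In Dhep it was 9.16 to 9.19 in liver and 10.38 to 10.46 in hepatocytes. Cd74 averaged 9.27 in FF liver and 9.32 in FF hepatocytes with its brightest probe, and Ciita 5.98 and 5.82. Both Ciita values are below the floor of 6.06, so its FF difference and its interaction are limited by the floor. The median difference of the list in FF was -0.02, with 0 of 10 genes called. The difference between the isolation differences of the genotypes, tested as an interaction over all probes, was called more positive in Dhep for 8 of the 10 genes, against 0.891% of all genes and 0.748% of all probes. It was 2.17 for the brightest Cd74 probe (adjusted p of the interaction from the same limma fit over all probes).

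Interferon-inducible genes formed the other large group among the higher calls. Interferon-gamma switches on guanylate-binding proteins and immunity-related GTPases, which attack intracellular parasites. Of 31 measured interferon-stimulated genes, 8 were called higher and 0 lower (median 0.48), against 0.641% and 0.624% of all genes. The 8 were Tgtp1, Gbp3, Igtp, Gbp2, Gvin1, Irgm2, Ifi47 and Gbp7. Gm12250, a GTPase gene of the immunity-related family that is not in the list, read 7.11, 7.28 and 7.08 on the liver arrays and 10.18, 10.19 and 10.09 on the hepatocyte arrays. That is an 8.00-fold difference (3.00, SE 0.06, adjusted p = 1.22e-20), and the interaction with genotype was 2.91. Tgtp1, an immunity-related GTPase first described in T cells, read 7.33, 7.17 and 7.14 in liver and 9.45, 9.39 and 9.55 in hepatocytes (2.25). The 3 hepatocyte arrays of each of these genes lay above all liver arrays. In FF liver and hepatocytes Gm12250 averaged 6.71 and 6.80, and Tgtp1 6.09 and 6.00, next to a floor of 6.06. Igtp differed by 1.69, Irgm2 by 1.42 and Ifi47 by 1.24, all of them immunity-related GTPases. Among guanylate-binding proteins, Gbp11 differed by 2.17, Gbp2b by 1.89, Gbp3 by 1.86, Gbp2 by 1.68, Gbp5 by 1.18, Gbp7 by 1.10 and Gbp10 by 1.04. Of these, Gbp11, Gbp2b, Gbp5 and Gbp10 are outside the list. These families hold similar genes whose probes may share targets, and single probes disagreed: another Gbp2 probe differed by 0.34 and another Gbp11 probe by 0.47. Irgm1 was called with a probe at 1.40, while its brightest probe, at 0.18, was not.

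Members of the interferon list differed among themselves, with 24 of 31 above 0. Isg15 was at -0.25, Rsad2 at -0.19, Mx1 at 0.04 and Ifit3 at 0.31, none of them called. Cxcl9, a chemokine induced by interferon-gamma, read 10.38 in liver and 11.37 in hepatocytes and missed the threshold, its difference rounding to 1.00, and Cxcl10 differed by 0.29. Other higher calls known as interferon-gamma targets were Ubd, a ubiquitin-like modifier (7.86 in liver, 9.47 in hepatocytes, difference 1.61), and Cd274, the ligand PD-L1 of the T cell checkpoint receptor PD-1 (7.65 and 8.97, 1.31). Both were picked out after their values were seen. Ifitm1, an interferon-induced membrane protein outside the list, went the other way. It was called lower in Dhep, with an interaction of -2.04.

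MHC class I presentation moved less. Of 15 measured genes of class I presentation and the immunoproteasome, 1 was called higher and 0 lower (median 0.45). The shares of all genes were 0.641% and 0.624%. Tap1, which pumps peptides into the endoplasmic reticulum, read 7.87, 7.93 and 7.99 in liver and 9.37 on each of the 3 hepatocyte arrays, a difference of 1.44. Tapbp, which bridges that pump to class I, differed by 0.86, Psmb9 by 0.67, H2-K1 by 0.21 and B2m, the light chain of class I, by -0.04. H2-T10, a non-classical class I gene, was called at 2.36 with its top probe, and its other probes differed by 0.53 to 1.13.

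Promoters of these genes are shown because the interferon-stimulated response element (ISRE), the GAS element and the Y box of class II promoters are the textbook control sites of the genes that moved together. RefSeq promoters on GRCm38.p6, 250 bases before to 50 after each start, were searched on both strands for GAAA repeated after any 2 bases (ISRE), TTCNNNGAA (GAS) and CTGATTGG (Y box); matches of the first and second pattern may share bases. Among called-higher genes, 63 of 86 matched a promoter and 17 of these 63 held the ISRE pattern (27%), against 2 of 62 called-lower genes (3.23%) and 3.99% of 27025 genes. Among the 17 were Gbp2, Gbp2b, Gbp3, Gbp5, Gbp7, Gm12250, Igtp, Irgm1, Irgm2 and Tgtp1. These belong to families of similar genes, so they are not independent cases. The GAS pattern was in 20.6% of called-higher and 11.3% of called-lower genes, against 9.55% of all, and the Y box in 7.94% and 4.84%, against 4.7%. A match is a description of letters and not evidence of binding. The promoters below are those of Gm12250 (chr11:58183593-58183892), Igtp (chr11:58199306-58199605) and Gbp2 (chr3:142620413-142620712), with the ISRE pattern in capitals, and of H2-Eb1 (chr17:34305617-34305916), with the Y box in capitals, all on the plus strand.
Gm12250: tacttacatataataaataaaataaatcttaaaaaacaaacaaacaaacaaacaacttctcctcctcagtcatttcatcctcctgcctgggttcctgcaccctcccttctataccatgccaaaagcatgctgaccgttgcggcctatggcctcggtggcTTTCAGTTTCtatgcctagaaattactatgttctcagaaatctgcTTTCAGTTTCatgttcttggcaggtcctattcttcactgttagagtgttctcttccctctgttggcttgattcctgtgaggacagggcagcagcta
Igtp: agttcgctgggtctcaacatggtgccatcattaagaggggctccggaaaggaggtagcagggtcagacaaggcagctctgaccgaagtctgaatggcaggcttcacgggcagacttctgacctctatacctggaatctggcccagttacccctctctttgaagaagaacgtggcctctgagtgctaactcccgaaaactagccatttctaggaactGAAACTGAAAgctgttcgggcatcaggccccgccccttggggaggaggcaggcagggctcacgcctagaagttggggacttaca
Gbp2: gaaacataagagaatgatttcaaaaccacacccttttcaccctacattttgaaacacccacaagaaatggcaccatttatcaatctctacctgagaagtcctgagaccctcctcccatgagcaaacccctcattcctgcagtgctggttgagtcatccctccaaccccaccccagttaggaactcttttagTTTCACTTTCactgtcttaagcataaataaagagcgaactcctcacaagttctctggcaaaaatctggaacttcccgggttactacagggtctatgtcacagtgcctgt
H2-Eb1: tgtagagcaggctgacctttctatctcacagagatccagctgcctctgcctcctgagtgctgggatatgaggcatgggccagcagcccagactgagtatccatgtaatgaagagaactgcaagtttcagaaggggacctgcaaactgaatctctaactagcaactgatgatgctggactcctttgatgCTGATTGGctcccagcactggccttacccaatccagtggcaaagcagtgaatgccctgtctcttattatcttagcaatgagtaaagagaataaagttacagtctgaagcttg
Gm12250 held 2 ISRE matches, at positions -91 and -46 from the start. Igtp held 1 at -34 and Gbp2 1 at -59, and the Y box of H2-Eb1 began at -62. The Y box was in 1 of the 4 matched class II genes called higher, H2-Eb1, and in 3 of the 7 matched among those measured.

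**Figure D2:**
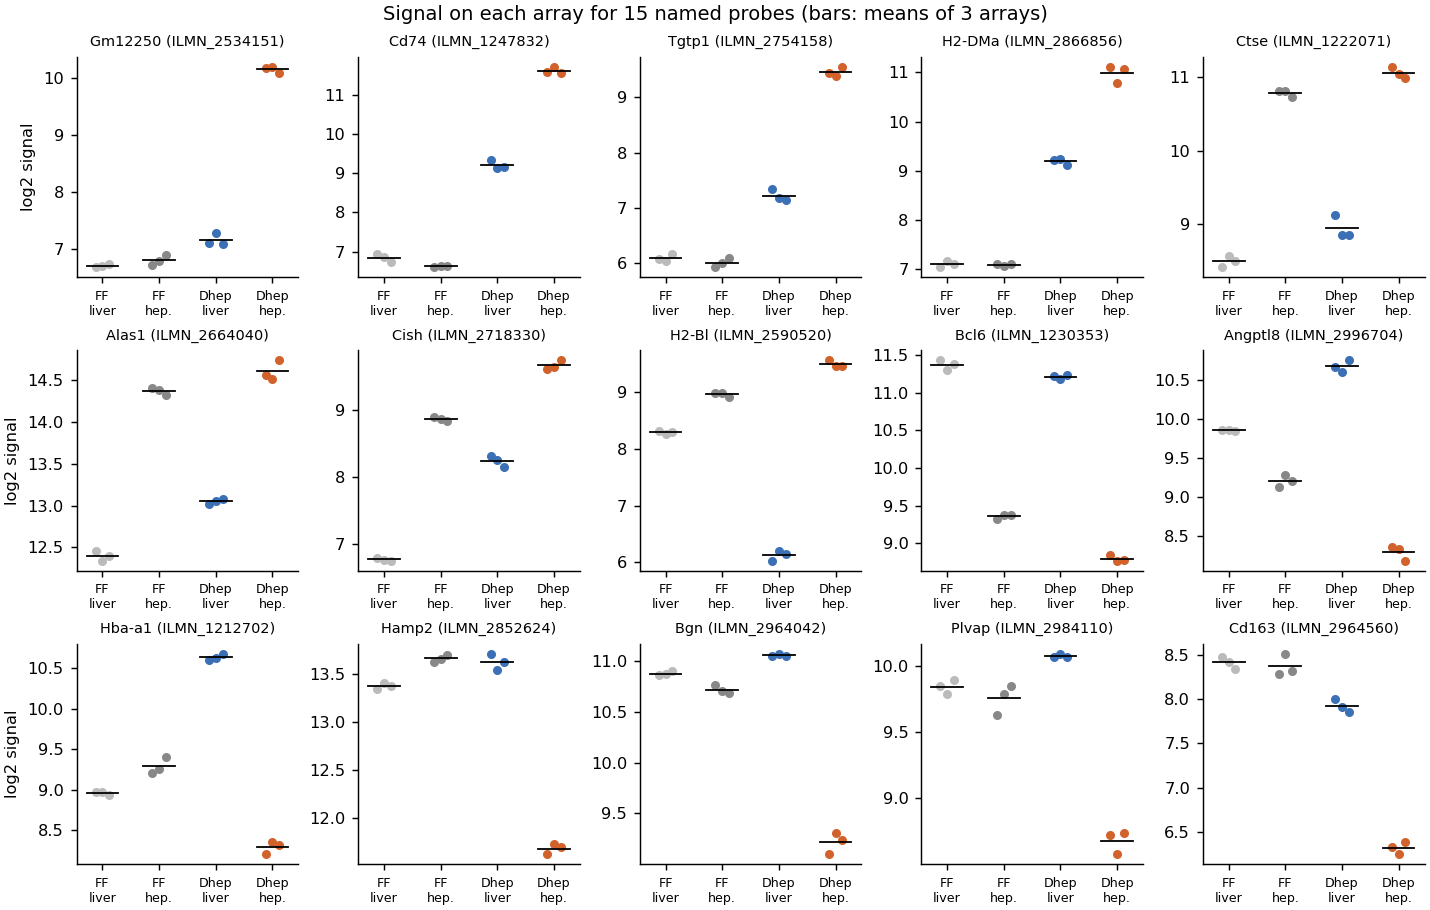
Signal on each of the 12 arrays (y axis, log2) for 15 named probes by group (x axis: FF liver, FF hepatocytes, Dhep liver, Dhep hepatocytes), each point an array and each bar the mean of 3 arrays; axes differ between panels and do not start at 0. Gm12250, Cd74, Tgtp1 and H2-DMa are highest in Dhep hepatocytes, Ctse, Alas1 and Cish are higher in hepatocytes of both genotypes, and Bgn, Plvap, Cd163 and Hamp2 are lowest in Dhep hepatocytes.

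Markers of macrophages moved with the class II and interferon genes. Of 21 measured Kupffer cell and macrophage markers, 18 were above 0 and 16 of those did not overlap between the preparations, against 27.4% of all genes that were higher without overlap. Their mean log2 signal was 9.29 on each Dhep liver array and 9.63 to 9.64 on the Dhep hepatocyte arrays, against 8.38 to 8.39 in FF liver and 8.32 to 8.34 in FF hepatocytes. Only 2 passed the threshold upwards, Mpeg1, a pore-forming protein of macrophages, at 1.15, and Timd4, a receptor for dying cells on Kupffer cells, at 1.00. Timd4 lost its call when single arrays were left out, with 0.97 without liver array 2 and 0.99 without liver array 3 or hepatocyte array 3. Clec4f (0.09) and Vsig4 (0.10), which mark Kupffer cells, were near 0, and Adgre1, which encodes F4/80, was at 0.72. Cd163, the scavenger receptor for haemoglobin and haptoglobin, went the other way: it read 8.00, 7.91 and 7.85 in liver and 6.33, 6.25 and 6.38 in hepatocytes (-1.60). Cd5l and Itgam were below the floor in both preparations. Other higher calls of myeloid genes were Fcgr4 (1.13), Spic (1.13), Clec7a (1.22) and Slc11a1 (1.07), picked out after their values were seen. B cells are another source of class II, and 0 of 5 measured B cell markers were called (median -0.17). Their mean log2 signal was 6.32 to 6.35 in Dhep liver and 6.12 to 6.16 in Dhep hepatocytes, close to the floor. Ms4a1, Pax5 and Jchain were below the floor. Markers this dim, in a list this short, give little check of B cells. The part of macrophages or B cells in the class II and interferon differences was not tested. In bulk RNA, more or fewer cells of a type cannot be told apart from more or less RNA per cell.

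Lcn2, a siderophore-binding protein made by neutrophils and by injured hepatocytes, read 9.80, 9.68 and 9.83 in liver and 11.39, 11.49 and 11.48 in hepatocytes (1.68). It was the single called member of 10 measured neutrophil markers (median -0.02), of which 4 were above 0 and 6 below. S100a8 was at 0.07 and S100a9 at -0.16, while Fpr2 went from 8.71 in liver to 9.43 in hepatocytes. Camp, Mpo, Elane and Ltf lay close to the floor of 6.06 in both preparations. The median of this list thus gives little check of neutrophils. Of 25 measured NF-κB targets, 2 were called higher and 1 lower (median 0.11), against 0.641% and 0.624% of all genes. Vcam1, an adhesion receptor for leukocytes, read 8.47, 8.62 and 8.66 in liver and 10.67, 10.59 and 10.70 in hepatocytes (2.07), but its other probes differed by 0.21 and 0.25. Ccl5, a T cell chemokine, was lower, at 8.34, 8.38 and 8.21 in liver and 7.14, 7.16 and 7.32 in hepatocytes (-1.10), and lost its call with median scaling (-0.95), which left the list with 0 lower. Icam1 (0.71), Nfkbia (0.29) and Tnfaip3 (0.24) were not called.

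Genes of stromal cells were among the lower calls. Stellate cells store vitamin A and lay down matrix, and sinusoidal endothelium lines the liver's capillaries. Of 23 measured stellate cell and fibroblast markers, 8 were called lower and 0 higher, against 0.624% and 0.641% of all genes. Among the 23, 22 were below 0 (median -0.57). Bgn, the matrix proteoglycan biglycan, read 11.05, 11.07 and 11.05 on the liver arrays and 9.10, 9.31 and 9.24 on the hepatocyte arrays, 3.58-fold lower (-1.84, SE 0.06, adjusted p = 1.79e-17). Acta2, smooth muscle actin, differed by -1.52, though its other probes gave -0.26 to -0.15. Reln, a secreted glycoprotein of stellate cells, differed by -1.50, Colec11, a collectin, by -1.42, Col3a1 by -1.29 and Dcn, the proteoglycan decorin, by -1.14. Vim, at 0.38, was the only marker of this list above 0, and Gfap was below the floor in both preparations. Mean log2 signal of the list was 8.02 to 8.05 in Dhep liver and 7.28 to 7.29 in Dhep hepatocytes, against 7.97 to 7.98 in FF liver and 7.95 to 7.99 in FF hepatocytes.

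Sinusoidal endothelial markers were lower as well, with 4 of 24 called lower, 0 called higher and a median of -0.78. Of these 24, 21 were lower without overlap between the preparations, against 26.6% of all genes. Plvap, which forms the diaphragms of endothelial pores, read 10.07, 10.09 and 10.07 in liver and 8.72, 8.58 and 8.74 in hepatocytes (-1.40). Ramp2, a co-receptor for adrenomedullin, differed by -1.36, the VEGF receptor Flt1 by -1.18 and the TGF-β co-receptor Eng by -1.17. The count of 4 became 9 at an offset of 16, 7 without background correction, 6 with the authors' table and 2 with median scaling, where Flt1 and Eng were each at -0.99. Leaving out liver array 2 gave 6. Stab2 (-0.94), Clec4g (-0.84) and Kdr (-0.10) were not called, and Nrp1 stood at 0.56. Mean log2 signal was 8.77 to 8.79 in Dhep liver and 8.08 to 8.10 in Dhep hepatocytes, against 8.66 to 8.67 in FF liver and 8.95 to 9.00 in FF hepatocytes.

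Matrix genes followed. Of 25 measured extracellular matrix genes, 7 were called lower and 0 higher, against 0.624% and 0.641% of all genes. Their median was -0.51, with -0.87 at an offset of 16 and -0.33 without a filter on dim probes. The basement membrane collagens Col4a1 (-1.29) and Col4a2 (-1.23) and the fibril-associated Col14a1 (-1.31) were called, whereas Fn1, fibronectin, which hepatocytes themselves secrete, was at 0.88. Ltbp4, which anchors latent TGF-β in matrix, differed by -1.81 and by -1.60 with a second called probe, while a further probe gave -0.16. Igfbp7, a secreted protein abundant in endothelium, read 12.88, 12.79 and 12.83 in liver and 11.22, 11.18 and 11.27 in hepatocytes (-1.61).

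**Figure D3:**
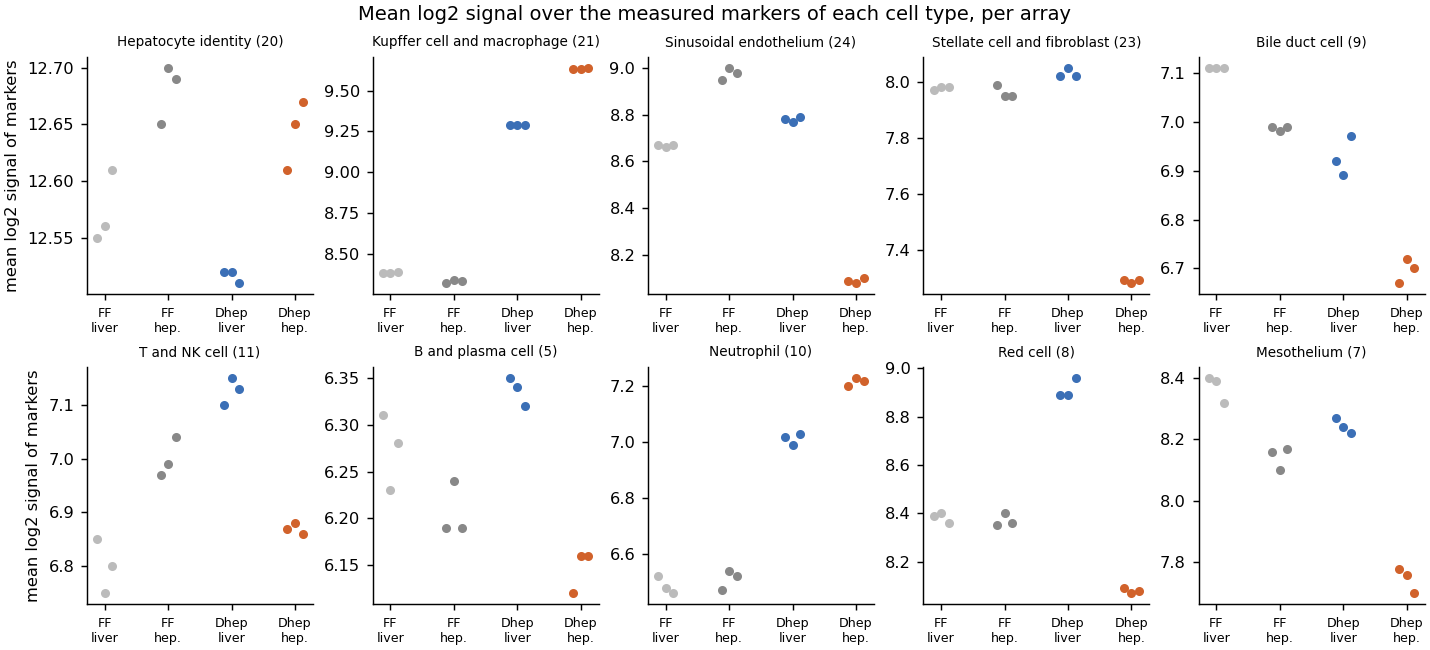
Mean log2 signal over the measured markers of each cell type (number in brackets) on each array (y axis, differing between panels and not starting at 0) by group (x axis), each point an array. Endothelial, stellate and red cell markers are lowest in Dhep hepatocytes, and macrophage markers are higher in both Dhep preparations than in FF.

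In FF the median difference was -0.06 for stellate markers and 0.20 for endothelial markers, with 0 members of either called lower and 1 endothelial marker called higher. The interaction was called more negative in Dhep for 8 of 23 stellate and 12 of 24 endothelial markers, against 1.57% of all genes and 1.78% of all probes. These lower interaction calls depend on the scaling of the arrays, since median scaling moves the median of all probes' interaction from 0.02 to 0.23. Of the 72 probes called lower in Dhep with a lower interaction, 22 kept the interaction call with median scaling, as against all 69 called higher with a higher one. That shift is upward and favours higher calls, so keeping all 69 is no test of them. Among the lower ones, Bgn (-1.04), Acta2 (-1.42) and Ramp2 (-1.30) kept the interaction call, and Plvap (-0.63), Colec11 (-0.81) and Eng (-0.70) lost it.

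Haemoglobin transcripts were lower in the isolated cells. Of 8 measured red cell markers, 3 were called lower and 0 higher (median -0.50), against 0.624% and 0.641% of all genes. Hba-a1, an alpha globin, read 10.61, 10.63 and 10.68 in liver and 8.21, 8.36 and 8.32 in hepatocytes, 5.06-fold lower (-2.34, SE 0.06, adjusted p = 4.90e-19). The beta globins Hbb-bt (-1.49) and Hbb-bs (-1.40 with the brightest probe) were called too, and all 6 Hbb-bs probes lay between -1.68 and -1.36. Globin genes are near-identical copies, so their probes do not separate them. Alas2, the red cell enzyme of haem synthesis, was at -0.28 and Slc4a1 at -0.02. The Dhep liver RNA stood apart in these transcripts, with Hba-a1 at 8.96 in FF liver and 9.29 in FF hepatocytes.

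Bile duct, mesothelial and lymphocyte markers gave single calls. Sox9, a regulator found in biliary epithelium, read 8.82, 8.82 and 8.90 in liver and 7.40, 7.33 and 7.38 in hepatocytes (-1.48), with another probe at -0.40, and was the only call among 9 bile duct markers (median -0.10). Krt7 (-0.10) was near 0, and Epcam and Cftr were below the floor in both preparations. Of 11 T and NK cell markers 1 was called lower, Ccl5 (0 with median scaling), and 2 were above 0 and 9 below. Cd3e was at -0.26 and close to the floor, with 6.49 in liver and 6.23 in hepatocytes. Cd8b1, the brightest of them in Dhep, went up from 9.41 to 10.20 and was not called. Of 7 mesothelial markers 1 was called lower, Igfbp5 at -1.29, a binding protein for insulin-like growth factors that stromal cells also make.

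A further set of genes differed in the same direction in both genotypes, whose arrays are separate. Of the 113 probes higher in Dhep and the 286 higher in FF (1.25% of probes), 21 were shared, and of the 108 lower in Dhep and 44 lower in FF (0.192%), 4 were shared. Bcl6, a transcriptional repressor that growth hormone and STAT5 hold down in liver, read 11.22, 11.18 and 11.24 on the Dhep liver arrays and 8.84, 8.77 and 8.78 on the Dhep hepatocyte arrays. It was 5.33-fold lower in Dhep (-2.41, SE 0.05, adjusted p = 3.62e-20) and differed by -2.01 in FF. Over both genotypes, with the RNA sample as replicate, its difference was -2.21 (adjusted p = 0.664, unadjusted p = 0.000349). Cish, a STAT5-induced inhibitor of cytokine signalling, read 8.32, 8.26 and 8.16 in liver and 9.62, 9.65 and 9.74 in hepatocytes (1.42, and 2.10 in FF). Socs2, another STAT5-induced inhibitor, differed by 1.04 (2.42 in FF), whereas Socs3, induced mainly through STAT3, was lower, at 9.03, 8.99 and 9.07 in liver and 7.68, 7.70 and 7.78 in hepatocytes (-1.31). Socs3 was about as low in FF liver (7.55) and FF hepatocytes (7.35) as in Dhep hepatocytes, so the Dhep liver stood apart. Among 21 measured genes of growth hormone, STAT5 and SOCS, 2 were called higher and 3 lower (median 0.06), and Igf1 was at -0.26.

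The Cish promoter is shown because it held the GAS pattern at 2 places at its annotated start, in capitals, and because it was the 1 promoter searched among the 2 called-higher genes of that list (chr9:107296409-107296708, plus strand, GRCm38.p6, RefSeq).
Cish: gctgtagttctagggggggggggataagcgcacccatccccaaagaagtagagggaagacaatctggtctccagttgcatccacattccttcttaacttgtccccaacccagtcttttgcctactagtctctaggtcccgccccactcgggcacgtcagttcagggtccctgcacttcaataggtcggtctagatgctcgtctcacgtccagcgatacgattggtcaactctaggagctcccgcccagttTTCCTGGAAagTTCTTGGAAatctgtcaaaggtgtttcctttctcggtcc
The first match begins at position 0 and the second at 11 from the start.

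Alas1, the rate-limiting enzyme of haem synthesis in liver, read 13.02, 13.06 and 13.08 in Dhep liver and 14.57, 14.52 and 14.74 in Dhep hepatocytes (1.56, and 1.97 in FF). The gene of cathepsin E, Ctse, an aspartic protease, read 9.12, 8.85 and 8.85 in liver and 11.14, 11.05 and 10.99 in hepatocytes (2.12, and 2.30 in FF). For both genes the hepatocyte arrays lay above the liver arrays in each genotype. Mt1, a metallothionein that binds zinc, differed by 1.22 (2.19 in FF), G6pc, the last enzyme of glucose release, by 1.18 (1.33), Angptl4, an inhibitor of lipoprotein lipase, by 1.04 (1.25) and Mfsd2a, a transporter of lysophospholipids, by 1.14 (2.48). Tubb2b, a beta tubulin, differed by -1.18 (-1.78 in FF), with its other probes at -0.19 to 0.14, and Tuft1 by 1.96 (1.49), with another probe at 0.16. The interaction was not called for Alas1, Ctse, G6pc, Cish or Bcl6. For Cish (-0.68), Alas1 (-0.41) and Bcl6 (-0.40) its adjusted p was under 0.05, but its size was below the threshold. It was called lower for 5 probes higher in Dhep, among them Zbtb20 (-1.42), Socs2 (-1.39), Mfsd2a (-1.34) and Lpin2 (-1.04). Median scaling ended the call of Mfsd2a (-0.76). The probe of Tnrc6a, a component of RNA silencing complexes, was called in opposite directions: it fell by 1.00 in Dhep and differed by 1.06 in FF, while its other probes, at 0.07 and 0.31 in Dhep, were not called.

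**Figure D4:**
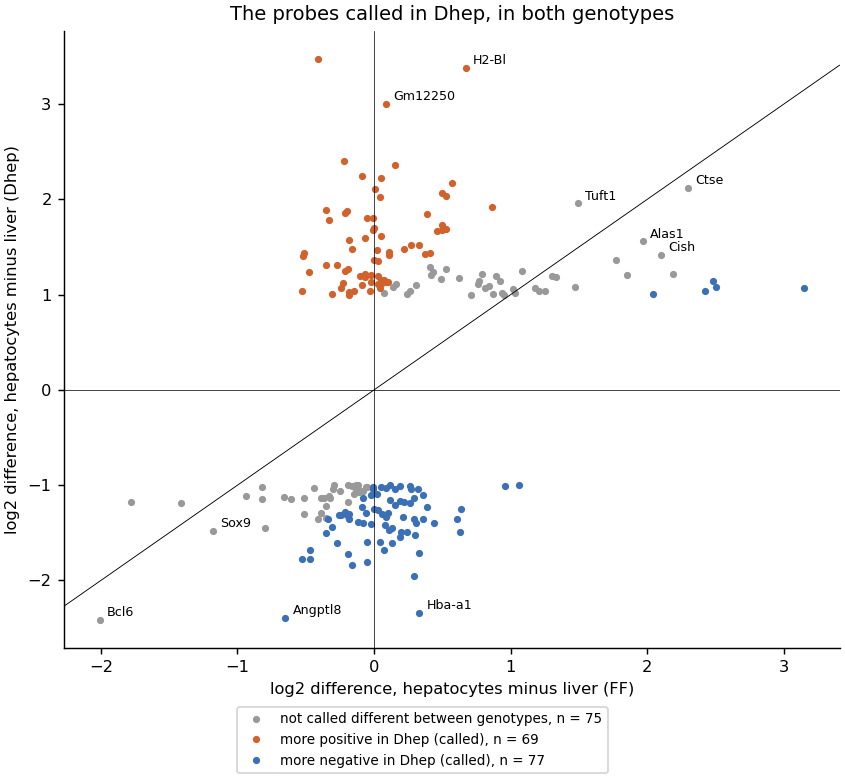
Difference between hepatocytes and liver in Dhep (y axis, log2) against that in FF (x axis, log2) for the 221 probes called in Dhep, each point a probe, coloured by the interaction call, with the line of equal differences. Probes such as Ctse, Alas1 and Bcl6 lie near the line, while 69 lie above it and 77 below it with a called interaction.

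Taking group means, Dhep hepatocytes stood at least 1 log2 unit from all other groups for 64 of the 113 higher probes and 35 of the 108 lower ones, and Dhep liver did so for 9 and 6. H2-Bl, a class I gene of the MHC region, was of the second kind. It read 6.03, 6.19 and 6.14 in Dhep liver and 9.56, 9.47 and 9.46 in Dhep hepatocytes. Only 2 of the 3 liver arrays were above the floor of 6.06, and these by little, so the difference of 3.38 is limited by the floor and no fold is given. In FF it was 8.29 in liver and 8.96 in hepatocytes, so the Dhep liver was the low group. For probes of this kind too, mouse and preparation cannot be told apart. Cptp, a transfer protein for ceramide-1-phosphate, was at the floor in Dhep liver (5.99, 5.96 and 6.01) and at 8.12, 7.91 and 7.97 in hepatocytes, at least 3.84-fold higher, but a second probe gave -0.12. Abca3, a lipid transporter, was called with 3 probes, at 1.52 to 1.67, and Asic5, an ion channel, by 1.85.

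Secreted liver proteins held some of the largest lower calls. Angptl8, a hepatokine induced by feeding that inhibits lipoprotein lipase, read 10.67, 10.60 and 10.75 in liver and 8.35, 8.33 and 8.18 in hepatocytes (-2.39, and -0.65 in FF). Hamp2, a paralog of the iron hormone hepcidin, read 13.71, 13.54 and 13.63 in liver and 11.62, 11.72 and 11.69 in hepatocytes (-1.95), while it differed by 0.29 in FF and Hamp itself by 0.37 in Dhep. G0s2, an inhibitor of the main triglyceride lipase, differed by -1.72, the succinate receptor Sucnr1 by -1.68 and Ifitm1, an interferon-induced membrane protein, by -1.71. Among 26 measured acute phase genes, 1 was called higher and 2 lower (median 0.27), against 0.641% and 0.624% of all genes. Lbp, which binds bacterial lipopolysaccharide, was higher at 1.07, and Hamp2 and Socs3 were lower. Saa1, the main inducible serum amyloid A, was at 0.87 and not called.

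Lists that record stress during handling gave 0 to 2 calls each, beside 0.641% of all genes called higher and 0.624% lower, and counts of 0 in lists of this size say nothing particular to them. Of 21 measured immediate early genes 0 were called (median -0.01), with Fos at 0.37, Jun at 0.01, Egr1 at -0.49 and Junb at -0.77. Of 19 heat shock and chaperone genes 0 were called (median 0.03), with Hspa1b at -0.14. Among 23 genes of the unfolded protein response, Creld2, an endoplasmic reticulum chaperone, was called at 1.00 and Asns, asparagine synthetase, at -1.39 with 1 of its 3 probes. Hspa5, the chaperone BiP, was at 0.65 and Ddit3, encoding CHOP, at -0.62, neither called. The Creld2 call was lost without liver array 1 (0.96), liver array 3 (1.00) or hepatocyte array 3 (0.98).

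Transcripts of ribosomal proteins were lower as a group by a small amount. All 24 measured cytosolic ribosomal protein genes were below 0 (median -0.46) and 22 did not overlap between the preparations, against 26.6% of all genes, but only Rpl27 was called: it fell by 1.00, from 12.87, 12.97 and 12.94 on the liver arrays to 11.83, 11.93 and 12.02 on the hepatocyte arrays. That call was lost with several settings, among them median scaling (-0.91) and leaving out hepatocyte array 1 (-0.95), liver array 2 (-0.98) or liver array 3 (-0.99). Rps3 (-0.02) and Rplp0 (-0.05) were near 0, and Rps29 (-0.87) and Rpl37 (-0.86) were not. Of 36 subunits of the mitochondrial respiratory chain, 0 were called, 27 were below 0 and 25 did not overlap, against 26.6% of all genes (median -0.28), with Ndufa5 at -0.95 and Atp5a1 at 0.21.

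**Figure D5:**
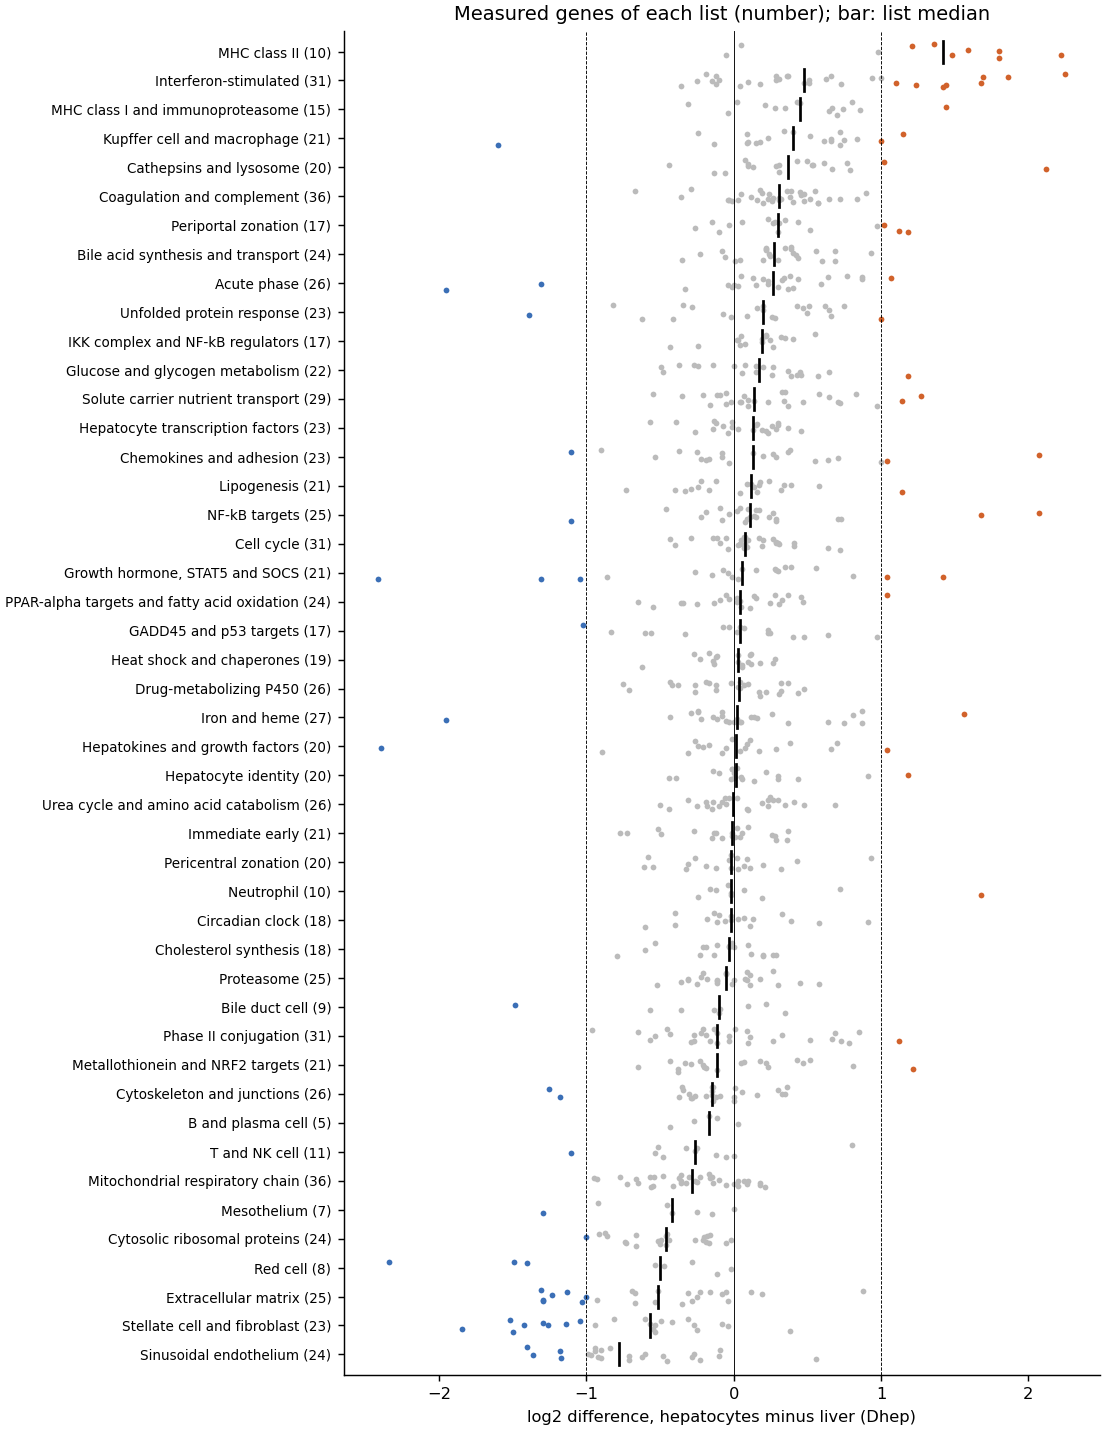
Difference between Dhep hepatocytes and Dhep liver (x axis, log2) for the measured genes of 46 lists (y axis, number of genes in brackets), each point a gene by its brightest probe, coloured where called, with a bar at each list's median and dashed lines at 1 and -1. MHC class II has the highest median, 1.42, and sinusoidal endothelium the lowest, -0.78.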

How the data were processed

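RNA of liver and isolated hepatocytes was hybridised to 12 Illumina mouse arrays, 3 for each of 4 groups. The authors deposited unnormalized intensity per probe, made with BeadStudio per the submitters' processing notes, and a second table of intensity normalized by the authors in a way no label states. The raw table used here held no detection p, which neqc would need, so the background was corrected by normexp without controls (offset 50), followed by log2 and quantile normalization in limma 3.58.1 under R 4.3.3. Probes above 6.06 (the median of all probe means, 66.7 before log2) on all arrays of 1 or more groups were kept: 22859 of 45281 (50.5%), 19222 with a symbol, for 12010 genes.

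Group means were estimated over all 12 arrays in limma (lmFit, eBayes; 8 residual and 14.8 prior degrees of freedom), giving Benjamini-Hochberg adjusted p over all kept probes, standard errors (SE), the Dhep and FF differences and their interaction. The 4 RNA means entered a model of preparation and genotype (1 residual and 2.33 prior degrees of freedom), with a random block by duplicateCorrelation (statmod 1.5.0, consensus correlation 0.566) as alternative. Replicate numbers were checked for pairing and did not pair arrays.

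The comparison, the 46 gene lists (1078 genes, 892 measured, each by its brightest kept probe) and the naming rule were chosen with earlier results of these data known, and some lists may follow those results. Named were Ikbkb, Ikbkg, Alb, the 12 largest calls each way in Dhep, up to 4 members of each list by size, and the 6 largest interaction calls each way. Other genes in the text were chosen after their values were seen. Lists were described by counts and medians, without a set test. Tested on simulated data of 22859 probes, 50 changed at each fold, the Dhep fit called 0 at a fold of 1.5, 26 at 2 and 50 at 3 and 4, with 0 false calls. That simulation held the spread between arrays but none between RNA samples, so it cannot show errors of the latter kind. With a simulated spread of 0.25 between RNA samples, the fit of the 4 RNA means gave 3 false calls. Alternatives were other background corrections and offsets, the authors' table, median scaling, cyclic loess, only the 6 Dhep arrays, other filters, another prior, other call rules, the replicate block, and leaving out arrays. Python 3.11.15 with matplotlib 3.10.9 drew the figures.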

Additional observations from a re-analysis of the deposited data

Results flagged for a closer look

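The isolation difference of 69 named probes differed between the genotypes in the interaction term of the limma fit (adjusted p under 0.05 over all probes and a size of at least 1). Each value in brackets is the Dhep difference minus the FF difference on the log2 scale, a test between 4 RNA samples, and the cause was not tested. It was more positive in Dhep for 29 probes. All 29 kept the call with median scaling, but that setting moves the median interaction of all probes up, from 0.02 to 0.23. It therefore favours higher calls and cannot test them. Among the 29 were Nlrp12 (3.32), Gm12250 (2.91), H2-Bl (2.71), Cd74 (2.63), Tgtp1 (2.34), Gbp2b (2.24), H2-T10 (2.21) and Cd74 (2.17). Also higher were Gbp3 (2.07), Tapbp (2.00), Cptp (1.98), H2-DMb1 (1.85), H2-DMa (1.82), Egr1 (1.73), Gbp2 (1.69) and H2-DMb2 (1.66). Further probes were Gbp11 (1.60), Vcam1 (1.58), Sult5a1 (1.35), Ehhadh (1.25), Sult1d1 (1.20), Lcn2 (1.18), Timd4 (1.18) and Igtp (1.16). The others were Ugp2 (1.09), Hmox1 (1.08), Mpeg1 (1.08), Slc25a30 (1.06) and Tap1 (1.03). Nlrp12 differed in FF, with 9.10 in FF liver, and was below the floor in the other groups, so its value is limited by the floor, as is that of H2-Bl, which was above the floor on 2 of 3 Dhep liver arrays.

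It was more negative in Dhep for 40 probes, of which 19 kept the call with median scaling. Kept were Erich5 (-3.59), Zxda (-3.12), Prf1 (-2.99), Cox6b2 (-2.89), Hba-a1 (-2.67), Rhbdl2 (-2.53), Hamp2 (-2.23) and Ifitm1 (-2.04). Also kept were Ramp2 (-1.97), Acta2 (-1.82), Ltbp4 (-1.76), Hbb-bs (-1.75), Igfbp7 (-1.74), Hbb-bt (-1.73), Angptl8 (-1.73) and Hbb-bs (-1.71). The rest kept were Bgn (-1.68), Cd163 (-1.56) and Cyp7a1 (-1.52). The FF hepatocytes stood above the other groups for Erich5 (12.27, with 9.87 in Dhep liver and 9.29 in Dhep hepatocytes), Zxda, Prf1 and Rhbdl2. With median scaling the remaining calls were lost. These were G0s2 (-1.54), Colec11 (-1.50), Col4a1 (-1.40), Flt1 (-1.39), Eng (-1.36), Mfsd2a (-1.34), Plvap (-1.32) and Igfbp3 (-1.31). Others lost were Asns (-1.27), A2ml1 (-1.25), Anxa2 (-1.24), Col3a1 (-1.23), Sucnr1 (-1.21), Reln (-1.15), Col4a2 (-1.14) and Dusp1 (-1.13). The last were Socs3 (-1.11), Thrsp (-1.11), Ccl5 (-1.08), Col14a1 (-1.05), and Angptl6, for which the difference fell by 1.00 from FF to Dhep.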

How the results depend on the processing

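Leaving out each Dhep array in turn gave 110 to 115 probes higher and 103 to 110 lower in Dhep. Omission of any of the 12 arrays gave 166 to 180 interaction probes higher and 407 to 421 lower. Counts in Dhep without a fold threshold were 4883 higher and 4682 lower, and with limma's treat against a fold of 1.5 they were 206 and 295. An offset of 16, which compresses dim probes less, gave 158 higher and 202 lower. Interaction counts with median scaling were 1900 higher and 112 lower, as against 171 and 408. The random block over RNA samples gave 75 higher and 16 lower where the RNA means gave 0. No correction, the authors' table, cyclic loess, only the 6 Dhep arrays, both other filters and a trended robust prior gave 109 to 132 higher and 107 to 148 lower. Deviations of same-numbered arrays correlated at -0.04 to 0.02, so the numbers were not taken to pair arrays, and with the replicate number as a block the counts were again 113 and 108. Of 72 called named probes, 63 kept the call in each of the 16 settings whose filter retained them. Bbc3, Ccl5, Creld2, Ctsc, Eng, Flt1, Igfbp3, Rpl27 and Timd4 lost it in at least 1. The filter on both Dhep groups retained 185 of the 192 named probes. Cptp and H2-Bl, not above the floor on all Dhep liver arrays, were therefore not tested under that filter. No named probe changed sign as a call. Medians of lists near 0 (hepatocyte identity, neutrophil, immediate early, clock and others at most 0.05 in size) changed sign under some settings, and the B cell median went from -0.17 to 0.00 without a filter. Using the mean of all kept probes of a gene, chosen after seeing the data, gave -0.71 for endothelial markers. The number of arrays and of mice limits the precision.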

Other observations

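Hepatocyte metabolism was mostly within 2-fold of liver in Dhep. Over all genes only 0.641% were called higher and 0.624% lower, so counts of 0 in lists of this size say nothing particular to them. Of 24 measured genes of bile acid synthesis and transport 0 were called (median 0.27), and Cyp7a1, which starts the classic route from cholesterol to bile acids, stood at 11.89 in liver and 12.82 in hepatocytes (0.93). Its FF difference was 2.45, and the interaction of -1.52 was called. Of 36 coagulation and complement genes, products that hepatocytes secrete, 0 were called, 30 were above 0 and 26 of 36 were higher without overlap, against 27.4% of all genes (median 0.31), with F7 at 0.90 and F8, which endothelium makes, at -0.67. None of the 26 drug-metabolizing P450 genes (median 0.03), 18 genes of cholesterol synthesis (-0.03), 26 of the urea cycle and amino acid catabolism (0.00), 23 hepatocyte transcription factors (0.13), 18 clock genes (-0.02), 25 proteasome subunits (-0.05), 31 cell cycle genes (0.08) or 20 pericentral genes (-0.02) was called by limma with the fold threshold. Without it, 4883 probes were higher and 4682 lower in Dhep at an adjusted p under 0.05, so smaller differences were common. Among 17 periportal genes 3 were called higher, G6pc at 1.18, the sulfotransferase Sult5a1 at 1.12 and the protease Ctsc at 1.02, which lost its call without liver array 1 or hepatocyte array 2 (0.99 each).

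The remaining lists gave at most 2 calls in either direction, beside 0.641% of all genes called higher and 0.624% lower. Among 20 cathepsins and lysosomal genes 2 were called higher (Ctse and Ctsc, median 0.37), among 29 nutrient carriers 2 (Slc13a3 at 1.27 and Slc25a25 at 1.14, median 0.14), and among 26 cytoskeletal and junction genes 2 were called lower (Anxa2 at -1.25 and Tubb2b at -1.18, median -0.15). Chemokines and adhesion genes held 2 higher (Vcam1 and Ccl9, which was at 1.04) and 1 lower (Ccl5, lost with median scaling) of 23, iron and haem genes 1 higher (Alas1) and 1 lower (Hamp2) of 27, and hepatokines 1 higher (Angptl4) and 1 lower (Angptl8) of 20. Among 21 metallothionein and NRF2 genes Mt1 was called higher, among 17 GADD45 and p53 targets Bbc3 was called lower at -1.02 (a call lost with median scaling, at -0.85, without hepatocyte array 2, at -0.98, and without liver array 1), among 31 conjugation enzymes Sult5a1 was called higher, among 24 PPAR-alpha targets Angptl4 (1.04), among 21 lipogenic genes Mfsd2a (1.14) and among 22 glucose and glycogen genes G6pc (1.18).

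The largest probe difference in Dhep belonged to a probe with no gene symbol, which read 8.79, 8.95 and 8.98 in Dhep liver and 12.35, 12.40 and 12.38 in Dhep hepatocytes. It averaged 12.98 in FF liver and 12.58 in FF hepatocytes, so the Dhep liver RNA was the low group. Mouse and preparation cannot be told apart for this probe either. In all, 14 of the probes called higher and 11 of those called lower had no symbol.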
